A study of Arabidopsis thaliana with 4 samples.

Results

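Rosette leaves of Arabidopsis thaliana plants kept in full nutrients for 100 h were set against leaves of plants kept in the same solution for 4 h. The comparison rests on 2 arrays of the 4 in the series, 1 array at each time, chosen by their treatment and time labels. Both groups are Col-5 plants of growth stage 6.10, raised on agar with 1% sucrose under a 16 h day until day 21 and then moved to hydroponics at 24 C, 80% humidity and constant light. The full solution held 0.25 mM phosphate. The remaining 2 arrays are leaves taken at 100 h and 4 h from plants that got no phosphate and whose solution held more potassium sulphate instead. They share no array with the full-nutrient pair, so their ratios are given beside it as a second reading of the same interval. The series title asks about phosphate deficiency, and the full-nutrient plants are its controls. The labels count the hours from the removal of nutrients, although full-nutrient plants lost none, and give neither the time since the move to hydroponics nor the number of plants on an array. The array labelled full nutrients at 100 h also carries a title code, P24, of the kind that both no-phosphate arrays carry (PO6 and P72), while the 4 h array carries NPK. The labels were followed as written.

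Leaf transcripts are known to shift with water supply, wounding and attack, under the control of hormones such as abscisic acid, jasmonate, salicylic acid and auxin. Among the genes concerned are dehydrins, which protect proteins and membranes when water is short, and chitinases, osmotin and defensins, which act on fungi. WRKY and zinc finger proteins switch many of these genes on or off. Chloroplast genes for light harvesting and carbon fixation form the most abundant messages of a leaf and are known to be lowered in many stress responses.

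With 1 array at each time there is no replicate, so the values below are sizes and carry no p-value, and the number of arrays limits their precision. A value is the deposited linear intensity of a probe set, the group of oligonucleotides that reads one transcript. Intensities under a floor of 7.25 were set to it, and a ratio with one array at the floor is a bound. Of 8247 probe sets that are no controls, 4516 reached an intensity of 22.45 on the brighter of both arrays and were compared. The log2 ratio is 100 h over 4 h throughout, and a difference of 2-fold or more is called higher or lower. Spiked-in RNA, read by 9 probe sets, averaged 0.15 ± 0.11 on this log2 scale (SD, n = 9 probe sets), and the 3′ over 5′ ratio of the GAPDH control was 4.52 at 100 h and 4.07 at 4 h. In bulk leaves, fewer cells of a type and less RNA per cell cannot be told apart. The leaf markers with a named probe set were bright at both times: PSAN read 4280.5 at 100 h and 2278 at 4 h, RCA 7395 at 100 h and 5088 at 4 h, and PSBW 5246 and 7665 at 100 h against 5785 and 5358 at 4 h. Markers of roots, flowers, phloem, guard cells and trichomes were not analysed here, since none of them was among the named probe sets.

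Of all probe sets compared, more were lower than higher at 100 h, but among those bright at both times the counts were equal. Of the 4516 compared, 572 were lower at 100 h (12.7%) and 291 were higher (6.44%), 863 in all (19.1%). The lower group also went further. Differences of 4-fold or more numbered 174 lower (3.85%) and 38 higher (0.841%), and differences of 8-fold or more numbered 49 lower (1.09%) and 6 higher (0.133%). The median size was 3.02-fold among lower and 2.37-fold among higher probe sets, counting 57 and 31 bounds at their bound. The median log2 ratio of all 4516 was -0.02, and 2725 of them (60.3%) lay within 1.5-fold. Scaling to the spiked-in RNA instead shifted that median to -0.17 and moved the split to 165 higher and 639 lower, so that 20.5% of the calls were higher against 33.7% with the deposited scale. Quantile normalization gave 361 higher and 470 lower (43.4% higher). Where the intensity was at least 100 at both times, the split was 102 higher and 102 lower. Of the lower calls 248 (43.4%) reached the level at 4 h only, and of the higher calls 107 (36.8%) reached it at 100 h only. Among all 4516 compared, 702 (15.5%) reached it on one array only. For such probe sets the filter fixes the direction of the difference, though not a size of 2-fold. Names are available for some of the probe sets only. Among the 1889 that name 1 gene, 219 were lower (11.6%) and 108 were higher (5.72%), 327 in all (17.3%), and as 1 value per gene 203 of 1791 genes were lower (11.3%) and 101 were higher (5.64%).

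**Figure D1:**
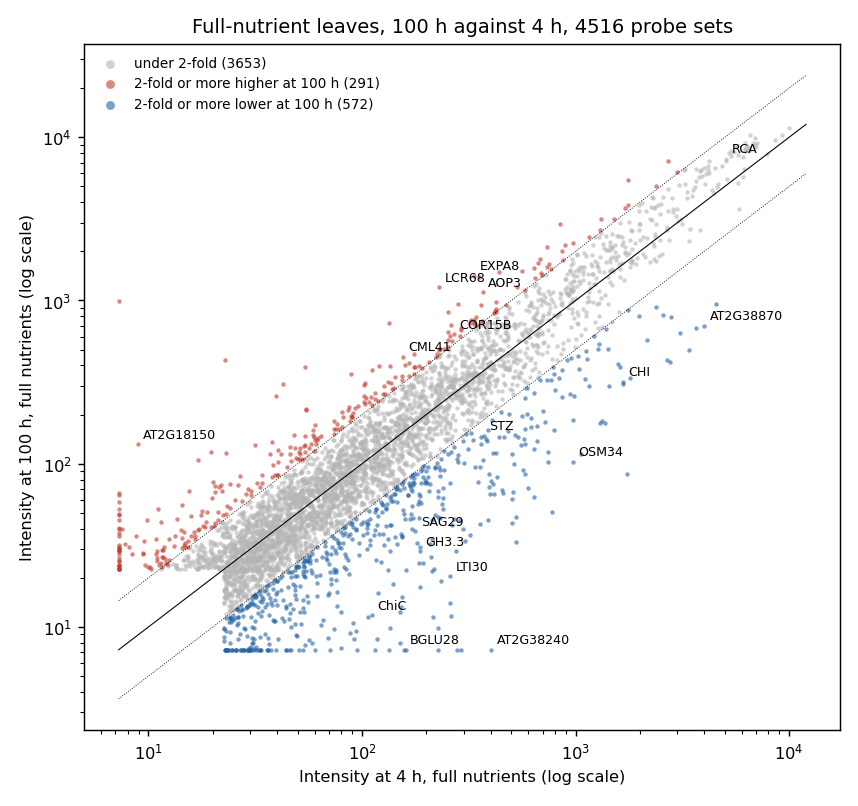
Intensity of each probe set at 100 h (vertical axis) against 4 h (horizontal axis) in full nutrients, both on log scales, with the line of equality and dotted lines at 2-fold. The 572 blue points lie below the lower dotted line and reach farther from it than the 291 red points do from the upper one; points along the left and bottom edges sit at the floor of 7.25.

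The balance between higher and lower calls varied with brightness. Among the 1360 dimmest probe sets (22.45 to 50 on the brighter array) 6.4% were higher and 12.8% lower, whereas among the 348 at 1000 or more 9.48% were higher and 10.1% lower. The median log2 ratio was -0.15 in the dimmest group and 0.36 in the brightest. A small positive ratio of a bright probe set is therefore close to what its neighbours in brightness show.

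**Figure D2:**
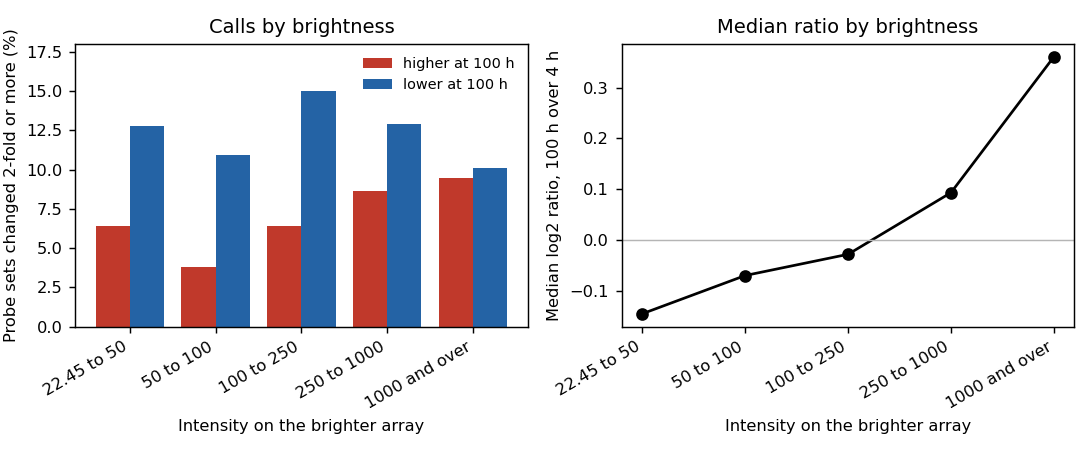
Left, percentage of probe sets 2-fold or more higher (red) or lower (blue) at 100 h in 5 ranges of the intensity on the brighter array; right, the median log2 ratio in the same ranges. The median climbs from -0.15 in the dimmest range to 0.36 in the brightest, and lower calls outnumber higher ones in each range.

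Among cold- and drought-regulated genes a few members were far lower at 100 h while others were level or higher. LTI30 (AT3G50970, also XERO2), a dehydrin that abscisic acid and cold induce, had an intensity of 20.5 at 100 h and 259 at 4 h, 12.6-fold lower (log2 -3.66). The late embryogenesis abundant gene AT2G46140 (LEA27) was under the floor at 100 h (3.3) and at 31 at 4 h, at least 4.28-fold lower. COR15B, whose product shields chloroplast membranes in the cold, went the other way, with 619 at 100 h and 270 at 4 h, 2.29-fold higher (log2 1.20). The bright members KIN2 and COR47, both cold-induced, stayed under 2-fold. KIN2 read 3526 and 3275 at 100 h against 2707 and 2953 at 4 h on its probe sets, and COR47 read 847 and 341 at 100 h against 1113 and 508 at 4 h. In all 1 of the 10 genes of this list was higher and 2 were lower, with a median log2 ratio of 0.07 whose sign changed with the scaling. Both lower genes, LTI30 and AT2G46140, reached the level for comparison at 4 h only, so the filter fixed their direction. RD2, a gene responsive to desiccation that was picked after its values were seen, was 2.34-fold lower on one probe set (327 at 100 h, 766 at 4 h) and 1.87-fold lower on the other.

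Chitinases and osmotin, proteins that attack fungal walls and membranes, were lower at 100 h in all 3 genes listed by symbol or synonym, with a median log2 ratio of -3.23. OSM34 (AT4G11650), osmotin, read 103 at 100 h and 974 at 4 h, 9.44-fold lower. ChiC (AT4G19810), a class V chitinase, read 11.8 at 100 h and 111 at 4 h, 9.40-fold lower. CHI (AT2G43570), a chitinase, read 318 at 100 h and 1660.5 at 4 h, 5.22-fold lower. These were well above the floor at 4 h and none was at the floor at 100 h. ChiC, however, reached the level for comparison at 4 h only, so the filter fixed its direction. The list median is ChiC's own ratio, and it was -2.68 with a floor raised to the 45th percentile. The small defensin-like peptides of the wider defence list did not follow the chitinases and osmotin. LCR68 (PDF2.3) was 5.26-fold higher, with 1206 at 100 h and 229 at 4 h (log2 2.40), the largest ratio of a gene with a symbol among those above the floor at both times. Its relative LCR72 (PDF2.6) was 2.09-fold higher at a low level (30.9 at 100 h, 14.8 at 4 h), and LCR69 was 1.44-fold higher (513 at 100 h, 357 at 4 h). Of the 5 genes of the defence list 2 were thus higher and 2, OSM34 and CHI, lower. Relatives of chitinases or osmotin that the gene table does not name as such are not among the 3 genes above, so the families as a whole were not read.

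Lectin, peroxidase and β-glucosidase genes included several of the larger differences. JAL23, a jacalin-related lectin, read 8.6 at 100 h and 69.6 at 4 h, 8.09-fold lower, while JAL34 of the same family differed by less than 2-fold (32 at 100 h, 44 at 4 h). The peroxidase gene AT5G64120 (PRX71), of the class III enzymes that act in cell walls, read 62.7 at 100 h and 637 at 4 h, 10.2-fold lower. Of the 2 genes in the peroxidase list it was the only 1 compared, so nothing is read for the family. Of 4 β-glucosidase genes compared, 3 were lower, and all 3 reached the level of 22.45 at 4 h only. These enzymes release defence compounds or hormones from their sugar conjugates. BGLU28 was under the floor at 100 h (1.6) and at 158 at 4 h, at least 21.8-fold lower. BGLU15 read 11.1 at 100 h and 65.7 at 4 h, 5.92-fold lower. BGLU46 was at least 3.20-fold lower. BGLU25, the one member above the level at both times, read 368 at 100 h and 519 at 4 h, under 2-fold. The median of the 4, -2.12 on the log2 scale, was -1.21 with a floor raised to the 45th percentile.

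**Figure D3:**
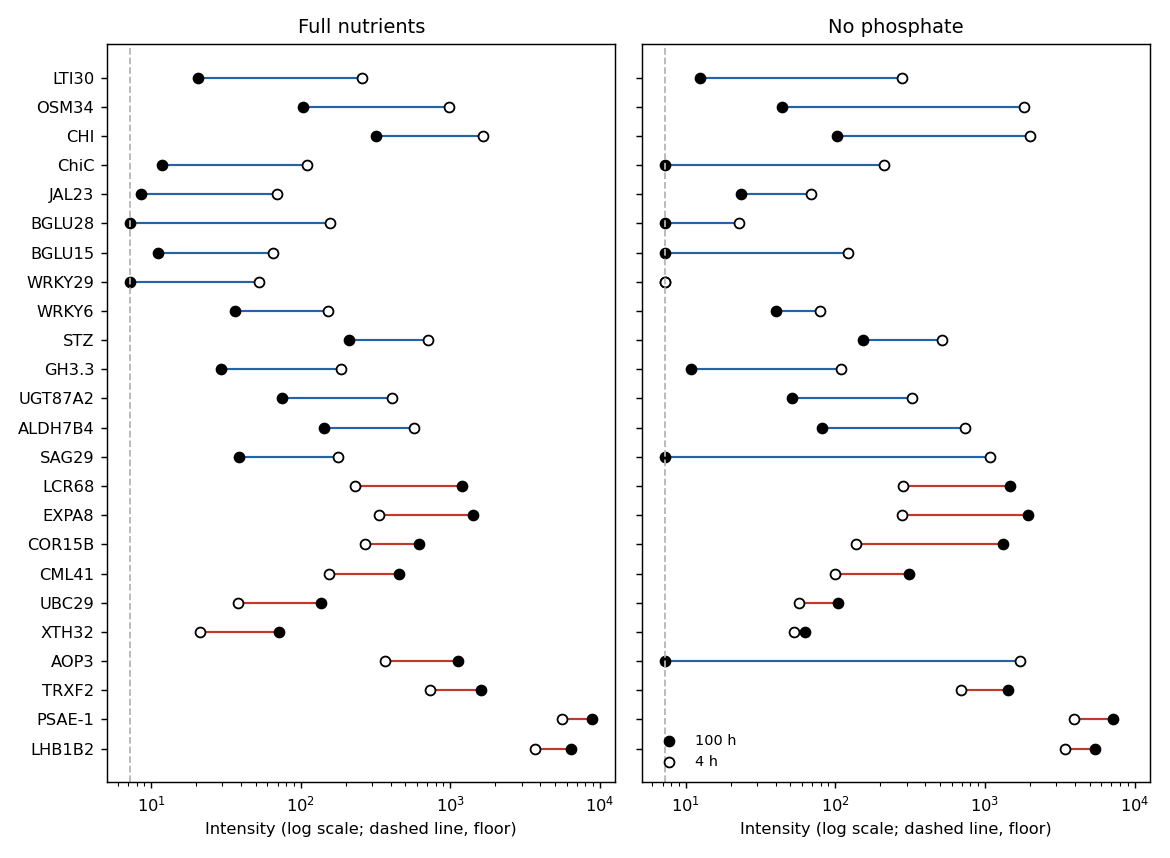
Intensity of selected genes at 100 h (filled) and 4 h (open) on a log axis, for full nutrients on the left and no phosphate on the right, with the brightest probe set of each gene and values under 7.25 drawn at the dashed floor; blue lines run lower and red lines higher at 100 h. On the left the stress and defence genes at the top are lower at 100 h and the genes from LCR68 down are higher, and AOP3 is the one gene drawn red on the left and blue on the right.

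Of 7 WRKY factors compared, 4 were lower at 100 h and none was higher. Their median log2 ratio was -1.24, against -0.53 in the no-phosphate pair. WRKY29, which acts in the response to bacterial flagellin, was under the floor at 100 h (1.4) and at 53 at 4 h, at least 7.31-fold lower. WRKY6, a factor of senescence and defence, read 36.3 at 100 h and 153 at 4 h, 4.22-fold lower. WRKY53 and WRKY22 were 2.67-fold and 2.37-fold lower. WRKY20 and WRKY47 differed by less than 1.5-fold. The remaining gene, ZAP1 (WRKY1), was read by 2 probe sets, with 56.4 at 100 h against 131 at 4 h on one probe set and 125 at 100 h against 169 at 4 h on the other. Some further signalling genes were picked after their values were seen and because they passed 2-fold, so they add nothing to the WRKY counts. Among the 389 compared probe sets of genes with a symbol, 60 were lower and 18 higher. The zinc finger repressor STZ (ZAT10) was 3.33-fold lower on one probe set (212 at 100 h, 704 at 4 h) and 2.51-fold lower on the other (148 at 100 h, 372 at 4 h). BIK1, a kinase of immune receptors, was 2.24-fold lower, and PIA1, a protein phosphatase induced by a bacterial effector, was 2.18-fold lower. SD1-29, an S-domain receptor kinase, was 2.17-fold lower (24.5 at 100 h, 53.1 at 4 h). None of the 6 bHLH and bZIP factors differed by 2-fold, and EIN3, the ethylene master regulator, read 1724 at 100 h and 1383 at 4 h.

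Of the 5 auxin genes compared, 3 were lower and none was higher at 100 h, 1 of the 3 on an uncertain reading. The median log2 ratio was -1.34, or -0.72 without the uncertain gene, IAA20, and 0.10 in the no-phosphate pair. GH3.3, an enzyme that couples auxin to amino acids and an early auxin-induced gene, read 29.2 at 100 h and 187 at 4 h, 6.41-fold lower. WES1 (GH3.5), of the same family, read 40.3 at 100 h and 105 at 4 h, 2.61-fold lower. IAA20, an auxin repressor, was 2.53-fold lower on one probe set (64.6 at 100 h, 164 at 4 h), but its other 2 probe sets were under the floor at both times, so that reading is uncertain. YUC2, an auxin synthesis enzyme, and IAA18 differed by under 1.5-fold.

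Enzymes of detoxification and conjugation were divided. UGT87A2, a glycosyltransferase, read 74.7 at 100 h and 411 at 4 h, 5.50-fold lower, the one gene of 12 in its family past 2-fold. The 12 had a median log2 ratio of -0.41, and 10 were under 0. CYP71B6, a cytochrome P450 of indole metabolism, read 138 at 100 h and 656 at 4 h, 4.75-fold lower, while CYP71B28 and CYP71B29 and the 3 glutathione transferases stayed under 2-fold. The aldehyde dehydrogenases split. ALDH7B4, a stress-induced member, read 143 at 100 h and 572 at 4 h, 4.01-fold lower, whereas ALDH11A3, which makes cytosolic NADPH from a sugar phosphate, read 602 at 100 h and 289 at 4 h, 2.08-fold higher. The redox genes split likewise. GR1, glutathione reductase, was 2.19-fold lower (185 at 100 h, 406 at 4 h). TRXF2, a chloroplast thioredoxin that switches on enzymes of carbon fixation in the light, was 2.19-fold higher (1611 at 100 h, 735 at 4 h).

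Cell wall genes had members at both ends. EXPA8, an expansin, which loosens walls so that cells can extend, read 1422 at 100 h and 336 at 4 h, 4.23-fold higher (log2 2.08). XTH32, an enzyme that cuts and rejoins xyloglucan, read 71.8 at 100 h and 21.4 at 4 h, 3.36-fold higher. EXPA4 and EXPA15 were 1.75-fold and 1.80-fold higher. The pectin methylesterase gene ATPMEPCRB (PME41) was lower on both probe sets, 9.60-fold on one (9.2 at 100 h, 88.3 at 4 h) and 2.94-fold on the other (13.6 at 100 h, 40 at 4 h). TBL37 and TBL26, of a family that acetylates wall polymers, were 4.09-fold and 3.56-fold lower. EXGT-A3, a xyloglucan enzyme, was 1.83-fold lower. Of the 15 cell wall genes compared, 2 were higher, 3 were lower and 10 differed by less than 2-fold, with a median log2 ratio of -0.14 (0.07 after quantile normalization).

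Transport, respiration and protein folding each held a gene that was lower. SAG29 (SWEET15), a sucrose exporter that marks old and stressed leaves, read 38.6 at 100 h and 178 at 4 h, 4.60-fold lower. It was the only one of 8 senescence and autophagy genes past 2-fold when probe sets were averaged, and the 6 ATG8 genes, whose products coat autophagosomes, ranged from 1.25-fold lower to 1.90-fold higher. GTR1, a transporter of glucosinolates, was 3.55-fold lower (94.9 at 100 h, 337 at 4 h). SAG29 and GTR1 were the 2 lower genes of 6 compared for sugar and nitrogen handling, and the other 4 were under 2-fold. SDH1-1, a subunit of succinate dehydrogenase, was 3.71-fold lower (46.8 at 100 h, 174 at 4 h). Hsp70-2, a chaperone, was 3.45-fold lower (46 at 100 h, 159 at 4 h) on one probe set. Its other probe set was under the level at both times (0.8 at 100 h, 10.3 at 4 h). CRT1b was 1.03-fold lower and PDIL5-1 1.34-fold higher, and the 3 chaperone genes compared had a median log2 ratio of -0.05. CYTC-2, cytochrome c, and PDC2, pyruvate decarboxylase, both chosen after their values were seen, were 2.03-fold and 2.13-fold lower.

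Several of the largest differences belong to loci that the gene table used here lists without a function. AT2G38240 was under the floor at 100 h (6) and at 402 at 4 h, at least 55.5-fold lower. AT1G30700 was 22.3-fold lower on one probe set (11.7 at 100 h, 261 at 4 h) and at least 22.1-fold lower on the other. AT4G20860 was 10.7-fold lower on one and at least 18.4-fold lower on the other, and AT1G09500 was 15.3-fold lower (50.4 at 100 h, 772 at 4 h) and 8.78-fold lower. In these 3 loci the probe sets of a gene gave sizes of the same order. Single probe sets placed AT4G39670, AT2G17740, AT4G18950 and AT4G22470 between 10.1-fold and 12.3-fold lower, and AT5G39580 at 7.67-fold lower. Of the 49 probe sets at least 8-fold lower, 18 name 1 gene.

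Genes of photosynthesis were mostly somewhat higher at 100 h, within 2-fold. The 13 genes compared had a median log2 ratio of 0.54, and 12 were above 0. PSAE-1, a photosystem I subunit, was read by 3 probe sets, with 8880, 6117 and 1765 at 100 h against 5589, 2986 and 875 at 4 h, and its ratios were 1.59-fold, 2.05-fold and 2.02-fold. LHB1B2 (LHCB1.5), a light-harvesting protein, read 6419 and 338 at 100 h against 3677 and 142 at 4 h, 1.75-fold and 2.38-fold higher. PSAN was 1.88-fold higher, PSBY, a photosystem II protein, 1.61-fold and RCA, the activase of Rubisco, 1.45-fold. PRK, which makes the carbon dioxide acceptor, had a log2 ratio of 0.59. LHCB4.1 and SBPASE were 1.26-fold and 1.16-fold higher, PORB had a log2 ratio of 0.14, and the 2 probe sets of PSBW disagreed in sign (log2 -0.14 and 0.52). Most of these probe sets are bright, and relative to the median of probe sets of like brightness the list's median log2 ratio was 0.18. With quantile normalization the median was 0.19, and with the spiked-in RNA as the scale it was 0.39. HEMA2, an enzyme of the first steps to chlorophyll and haem, was the exception within the list, 2.70-fold lower (12.1 at 100 h, 32.7 at 4 h). GSA1, a glutamate-1-semialdehyde aminomutase outside the list and picked after its values were seen, was 2.17-fold lower (69.4 at 100 h, 150.8 at 4 h).

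Other genes with a known role were higher one by one. UBC29, a ubiquitin-conjugating enzyme, read 137 at 100 h and 38 at 4 h, 3.60-fold higher, while the other 3 proteasome and ubiquitin genes compared were under 2-fold. AOP3, a dioxygenase of glucosinolate side chains, read 1120 at 100 h and 368 at 4 h, 3.04-fold higher. CML41, a calmodulin-like calcium sensor, read 453 at 100 h and 155 at 4 h, 2.93-fold higher. Of the other calcium signalling genes compared, GLR2.7 was 2.10-fold lower (27.8 at 100 h, 58.5 at 4 h) and CML42 1.15-fold lower. The wax gene AT4G13840 (CER26), which elongates cuticular wax precursors, was 3.01-fold higher (122 at 100 h, 40.6 at 4 h). PRL (MCM7), a part of the helicase that opens DNA for replication, was 2.10-fold higher (85 at 100 h, 40.5 at 4 h), while HIS1-3 and HTB2, histone genes of the same list, were 1.31-fold and 1.29-fold higher. GH9B8, a glycosyl hydrolase chosen after its value was seen, was at least 3.52-fold higher, whereas GH9B6, chosen likewise, was 2.44-fold lower (9.5 at 100 h, 23.2 at 4 h). DI19, a drought-induced zinc finger protein, was 1.93-fold higher (3943 at 100 h, 2044 at 4 h).

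Loci listed without a function also led the higher side. AT2G18150 read 132 at 100 h and 8.9 at 4 h, 14.8-fold higher. AT2G43590 was 7.26-fold higher on one probe set (309 at 100 h, 42.6 at 4 h) and 5.09-fold higher on the other. AT4G29030 was 6.16-fold higher (105 at 100 h, 17.1 at 4 h). These 3 stand apart from LCR68 and EXPA8 in the no-phosphate pair, as described further on. AT2G20870 was at least 8.87-fold higher on one probe set but had a log2 ratio of -0.59 on the other (15.9 at 100 h, 23.9 at 4 h), so its direction is uncertain. AT5G59170, AT1G67510, AT1G62500 and AT1G75800 were under the floor at 4 h and between 39.9 and 58 at 100 h, at least 5.50-fold to at least 8.00-fold higher. Of the 6 probe sets 8-fold or more higher, 3 name 1 gene.

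**Figure D4:**
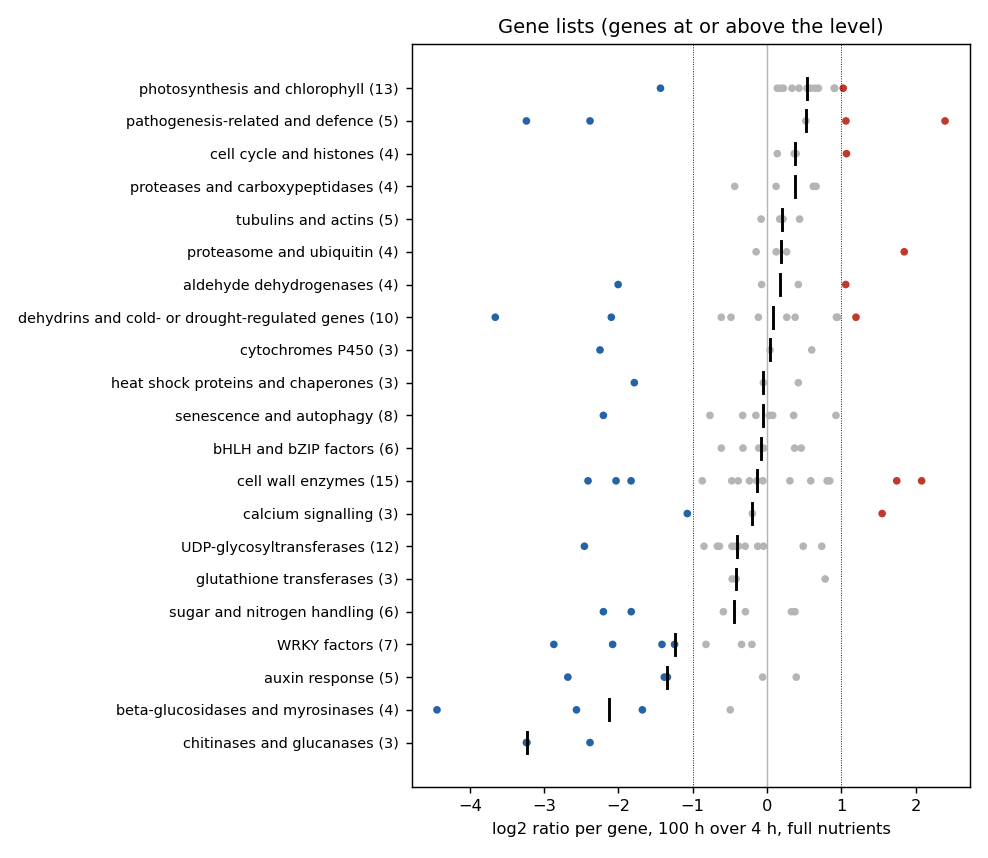
Log2 ratio, 100 h over 4 h in full nutrients, for each gene (point, mean of its probe sets) of the 21 lists with at least 3 genes compared; black bars are list medians, dotted lines mark 2-fold, and the number of genes stands in brackets. Chitinases and osmotin, β-glucosidases, auxin genes and WRKY factors have medians of -3.23, -2.12, -1.34 and -1.24, and no list has a median above 0.54.

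Of 39 lists 21 had at least 3 genes compared, and 17 of those held at least 1 gene past 2-fold. The medians of 4 lists were past 2-fold, all of them lower: chitinases and osmotin (3 of 3 genes lower), β-glucosidases (3 of 4), WRKY factors (4 of 7) and auxin genes (3 of 5, a median that rests on IAA20). Some of these lower genes reached the level at 4 h only, so the filter fixed their direction. They were all 3 β-glucosidases, 1 of the 3 chitinase and osmotin genes, 1 of the 4 WRKY factors and no auxin gene. The lists were chosen with earlier results of these data known. These 4 lists held 13 of the 39 genes past 2-fold, counted in each list they belong to. Over all named genes 11.3% were lower and the median was -0.04. Tubulins and actins (5 genes, median 0.20), proteases (4 genes, median 0.37) and bHLH and bZIP factors (6 genes, median -0.08, or 0.10 after quantile normalization), like the 3 glutathione transferases, held no gene past 2-fold. Starch genes were represented by AMY1 and SBE2.2 alone, 1.14-fold and 1.21-fold lower. GI, a clock gene, had log2 ratios from -0.31 to 0.89 over its 3 probe sets at or above the level. The phosphate starvation, NAC, berberine bridge enzyme, aquaporin, ribosomal protein and receptor-like kinase lists matched no gene by symbol or synonym and were not analysed here. A locus that the gene table gives neither a matching symbol nor a matching synonym enters no list, so family members among such loci are not counted.

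Besides the spiked-in RNA, the spread between probe sets of one gene is the measure of error these arrays give. Over 84 genes with 179 probe sets the log2 ratio had an SD of 0.49 within a gene, which covers neither plants nor hybridisations. In 8 of these genes all probe sets were lower, in 2 all were higher, in 58 all were under 2-fold and in 16 some passed and some did not. No gene had one probe set called higher and another called lower. A 2-fold difference is a log2 ratio of 1 and a 4-fold difference one of 2, to be read against that SD.

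The no-phosphate pair was again past 2-fold in the same direction for most of the lower probe sets and for a smaller share of the higher ones. It called 790 of 4534 probe sets lower at 100 h (17.4%) and 695 higher (15.3%), or 32.8% in all. Its spiked-in RNA averaged -0.40 ± 0.19 on the log2 scale (SD, n = 9 probe sets), and the part of this offset in the counts was not tested. Of the 572 probe sets lower in full nutrients 511 could be compared there, and 349 (68.3%) were also 2-fold or more lower, 139 differed by less than 2-fold and 23 were 2-fold or more higher. Of the 291 higher in full nutrients 256 could be compared, and 119 (46.5%) were also higher, 122 differed by less than 2-fold and 15 were lower. The median log2 ratio without phosphate was -1.63 for the 511 and 0.91 for the 256. The gap between the lower and the higher group was wider for large differences. Of 152 probe sets at least 4-fold lower, 140 (92.1%) were lower without phosphate too, against 12 of 25 (48%) of those at least 4-fold higher. The 2 shares were not tested against each other.

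Many named genes kept their direction with another size. LTI30 had log2 ratios of -3.66 in full nutrients and -4.50 without phosphate, OSM34 -3.24 and -5.37, CHI -2.38 and -4.29, GH3.3 -2.68 and -3.31, and UGT87A2 -2.46 and -2.68. SAG29 was more unequal than these, with -2.20 in full nutrients and -7.23 without phosphate, where it was at 1085 at 4 h. Among the higher genes LCR68 had 2.40 in full nutrients and 2.38 without phosphate, EXPA8 2.08 and 2.81, COR15B 1.20 and 3.26, and AT4G13840 1.59 and 4.02. XTH32 and PRL, at 1.75 and 1.07 in full nutrients, were at 0.26 and 0.02 without phosphate. WRKY6, WRKY22 and TBL37, lower by 2-fold or more in full nutrients, had -0.97, -0.53 and -0.69 without phosphate, and TBL26 had -0.05. WRKY29 was under the floor at both times there. COR47 and BGLU25, under 2-fold in full nutrients, were past it without phosphate.

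**Figure D5:**
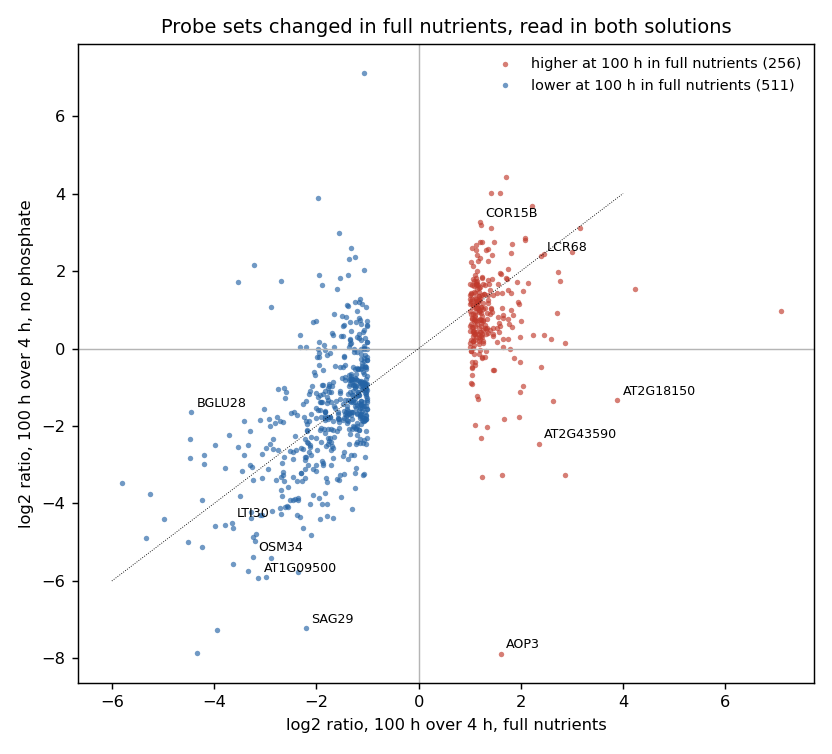
Log2 ratio, 100 h over 4 h, without phosphate (vertical axis) against full nutrients (horizontal axis) for the probe sets called in full nutrients and bright enough in both pairs, with a dotted line of equality; 511 were lower (blue) and 256 higher (red) in full nutrients. The median on the vertical axis is -1.63 for blue and 0.91 for red points. Points of both colours lie on both sides of 0, with AOP3 the lowest red point at -7.88.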

How the data were processed

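Rosette leaf RNA was hybridised as biotin-labelled cRNA to Affymetrix arrays, per the labels' protocols. The authors deposited 1 intensity on a linear scale for each of 8297 probe sets on each array. The software that made the intensities is not given in the sources used here. After trimming 2% of the values at each end, all 4 arrays had a mean near 100.2, which shows a common scaling before deposit, and none was added.

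Controls (50 probe sets) were left out. The floor of 7.25 is the mean over the 4 arrays of the 30th percentile, and the level of 22.45 the mean of the medians. Log2 ratios and the 2-fold rule of size were computed with pandas 2.3.3 and numpy 2.4.6 in Python 3.11.15. The rule was also tested on simulated data, and that test gives no rate of error for these arrays. Of 8247 probe sets, 3864 were listed in the platform annotation, 3794 named 1 gene and 70 several. Through gene identifiers 3784 matched 3592 loci of the RefSeq table (TAIR10.1, names only), and no coordinates are given since the files name no build. Probe sets of a gene were averaged on the log2 scale for lists.

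Genes were named by a rule: the 15 highest and 15 lowest ratios above the floor, the 5 largest bounds each way, the largest and brightest list members, and the 8 brightest genes. Genes with a symbol past 2-fold outside this rule were added after their values were seen. The comparison and the 39 lists, matched by symbol, synonym or description with homonyms removed, were chosen with earlier results of these data known. Alternatives were another floor, filter or scaling, 1 value per gene, the no-phosphate arrays and, added after the data were seen, ratios relative to probe sets of like brightness and the auxin list without IAA20.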

Additional observations from a re-analysis of the deposited data

Results flagged for a closer look

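A few genes moved in opposite directions in the 2 solutions, each by 2-fold or more. AOP3 had a log2 ratio of 1.61 in full nutrients and -7.88 without phosphate, where it read 5.7 at 100 h and 1706 at 4 h. AT2G43590 had 2.86 and 2.35 on its probe sets in full nutrients and -3.28 and -2.46 without phosphate. AT2G18150 had 3.89 in full nutrients and -1.33 without phosphate, and AT4G29030 had 2.62 and -1.34. Each direction rests on 1 array at each time, and the difference between the solutions was not tested. In all, 38 probe sets were opposite in this way, 23 lower in full nutrients and higher without phosphate and 15 the reverse, among 4294 compared in both solutions.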

How the results depend on the processing

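With the deposited scale and floor, 291 probe sets were higher and 572 lower. The higher count was 165 after scaling to the spiked-in RNA. With both arrays at 100 or more the counts were 102 higher and 102 lower, and with 1 value per named gene 101 and 203. The share of higher calls was 50% with both arrays at 100 or more, against 33.7% with the usual filter, and 33.2% with 1 value per gene. The causes were not tested. Lower calls outnumbered higher ones under each floor and scaling tried, with 361 higher and 470 lower after quantile normalization, 359 and 491 when scaled to bright probe sets, and 237 and 466 when the floor was raised to the 45th percentile.

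Of 110 readings of named genes past 2-fold, 33 of them chosen after their values were seen, 97 stayed past it in the same direction with the higher floor, 95 after quantile normalization, 100 when scaled to bright probe sets and 103 when scaled to the spiked-in RNA, and none reversed. The 4 list medians past 2-fold stayed past it under each of these and relative to probe sets of like brightness, but the auxin median was -0.72 without IAA20. In the no-phosphate arrays 72 of the 110 and 2 of the 4 did so, and the WRKY median was -0.53. A change of sign of any size counts as reversed. By that rule the auxin list median (0.10) and IAA20 (0.10) were reversed there, both under 2-fold. So were THI2.1 (0.35), NRPE3B (0.81), CHL (0.49), NIG (0.28), CTF2A (-0.68) and SAL2 (-0.068), also under 2-fold there. In full nutrients THI2.1 had a bound of -2.33, NRPE3B -1.43, CHL -1.08, NIG -1.05, CTF2A 1.05 and SAL2 1.32. Past 2-fold in the other direction were AOP3 (-7.88), AT2G43590 (-2.46 and -3.28), AT4G29030 (-1.34) and AT2G18150 (-1.33). No paired analysis was possible because each group has 1 array. Depth in the form of signal over background limits the dim genes: 29.8% of probe sets at 100 h and 27.8% at 4 h were under the floor.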

Other observations

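Neighbouring genes were set side by side as a description. The RefSeq gene table (TAIR10.1) gave 306 pairs of neighbouring protein-coding genes with both members compared. In 5 pairs both were 2-fold or more lower at 100 h, in 3 both were higher, in 3 they were opposite, in 93 one was past 2-fold and in 202 neither was. Over all named genes 11.3% were lower and 5.64% higher, and with shares of that size some pairs differ together in any case, so nothing is read from these counts. The pairs that were lower together include the β-glucosidases BGLU15 and BGLU28 (log2 -2.57 and a bound of -4.44) and TPP2, a large peptidase, with AT4G20860 (-1.63 and -3.81). Those that were higher together include the defensin-like genes LCR68 and LCR72 (2.40 and 1.06), COR15B with AT2G42520 (1.20 and 1.62) and AT4G29030 with AT4G29020 (2.62 and 2.04). Opposite neighbours include CYTC-2 with AT4G10030 (-1.02 and 1.25). Neighbours of one family can share sequence, and how far their probe sets read each other's transcript was not tested.

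The 8 brightest named genes at 100 h, photosynthesis genes among them, all differed by less than 2-fold between the times on their brightest probe set. AT1G07590 read 10272.5 at 100 h and 9272 at 4 h, and ECS1 read 6417 at 100 h and 6163 at 4 h. AT2G45180 read 7592 and 7119 at 100 h against 6054 and 5061 at 4 h on its probe sets. ECS1 was at 9011 at 100 h and 2848 at 4 h without phosphate.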
